A study of Rattus norvegicus with 17 samples.

Results

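Gonocytes are the germ cells of the fetal testis, and 10 genes that mark them or steer their fate were followed here through 5 dose groups of rat fetal testis: Ddx4, Dazl, Nanos2, Nanos3, Dnd1, Pou5f1, Sycp3, Stk31, Kit and Dnmt3l. The set was put together with earlier results of these data known; its rows were then taken by gene symbol, each identifier once, with no threshold on a measured value. All 10 had a row among the 30560 genes counted, and all 10 passed the filter on low counts that left 18005 genes for testing. The study sequenced polyA-selected RNA of fetal testes whose dams had been given dipentyl phthalate (DPeP), a plasticizer, by mouth. All animals were wild-type Sprague Dawley rats, dosing began on gestational day 17 and lasted to day 21, when testes were taken. The groups were dams given corn oil alone, which is the vehicle and was dosed at 2.5 mL/kg (n = 3 libraries), and dams given DPeP in that oil. Libraries numbered 3 at each of 1, 11 and 100 mg/kg/d and 5 at 300 mg/kg/d. Each library came from 1 testis or 2 pooled testes of 1 litter. No source used here says whether each had its own dam, so p-values measure the spread between these libraries.

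Gonocytes descend from primordial germ cells. Once enclosed in the cords of the fetal testis they switch off the pluripotency gene Pou5f1, stop dividing, are kept out of meiosis and begin to lay down the paternal DNA methylation pattern. The RNA-binding proteins NANOS2 and DND1 take part in this male programme by repressing and degrading messenger RNAs, and DNMT3L is the cofactor of the enzymes that methylate DNA in these cells. Phthalate esters of this type are known to lower androgen synthesis by fetal Leydig cells and to cause gonocytes with several nuclei in the fetal rat testis.

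The promoters of 4 genes that were high in the same 2 libraries at 100 mg/kg/d (Ddx4, Stk31, Sycp3 and Dazl) and of Nanos2 are shown first because the values below turn on these genes. They were chosen after those values were seen. Each sequence holds the 250 bases before the RefSeq start of the gene in the build GRCr8, 5′ to 3′ on the gene's own strand. Capitals mark CACGTG, an E-box, and TTCCCGC, an E2F-type motif that reads GCGGGAA where it lies on the other strand. These windows were read from RefSeq for 9 of the 10 genes, with no entry for Pou5f1, and their coordinates are separate from the mRatBN7.2 positions of the counts.
Ddx4, GRCr8 chr2:46015952-46016201, minus strand: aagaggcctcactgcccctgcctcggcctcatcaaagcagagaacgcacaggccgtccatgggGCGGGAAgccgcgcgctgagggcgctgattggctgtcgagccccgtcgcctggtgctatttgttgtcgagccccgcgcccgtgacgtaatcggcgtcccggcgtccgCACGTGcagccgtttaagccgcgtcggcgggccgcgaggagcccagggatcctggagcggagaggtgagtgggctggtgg
Stk31, GRCr8 chr4:79701491-79701740, plus strand: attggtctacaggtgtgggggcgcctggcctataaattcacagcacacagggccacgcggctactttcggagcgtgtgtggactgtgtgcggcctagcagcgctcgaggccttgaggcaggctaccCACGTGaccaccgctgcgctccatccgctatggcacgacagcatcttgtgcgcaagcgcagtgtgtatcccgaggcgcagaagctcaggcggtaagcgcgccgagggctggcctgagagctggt
Sycp3, GRCr8 chr7:24761226-24761475, plus strand: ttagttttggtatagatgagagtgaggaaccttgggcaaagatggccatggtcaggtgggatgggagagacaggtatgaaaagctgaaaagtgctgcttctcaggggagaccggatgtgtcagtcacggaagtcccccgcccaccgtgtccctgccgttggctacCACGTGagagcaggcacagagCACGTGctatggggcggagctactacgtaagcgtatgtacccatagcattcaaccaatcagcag
Dazl, GRCr8 chr9:18193113-18193362, plus strand: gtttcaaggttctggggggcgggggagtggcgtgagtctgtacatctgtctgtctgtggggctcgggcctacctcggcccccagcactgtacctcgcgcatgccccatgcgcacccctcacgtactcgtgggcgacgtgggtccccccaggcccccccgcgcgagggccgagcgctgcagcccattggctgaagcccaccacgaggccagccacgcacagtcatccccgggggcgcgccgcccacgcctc
Nanos2, GRCr8 chr1:87763466-87763715, plus strand: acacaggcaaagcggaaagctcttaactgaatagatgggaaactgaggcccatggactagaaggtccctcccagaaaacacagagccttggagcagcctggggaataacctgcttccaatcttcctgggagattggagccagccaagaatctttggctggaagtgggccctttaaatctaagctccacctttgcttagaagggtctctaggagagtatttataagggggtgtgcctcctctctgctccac

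CACGTG stood in 4 of the 9 windows, at position 171 of Ddx4, 127 of Stk31, 45 of Dnmt3l and at positions 166 and 187 of Sycp3, counted from 1 at the 5′ end. The windows of Dazl and of Nanos2 held none. Of 33360 promoter windows of the same length, 5.61% held it. TTCCCGC was found on the other strand of the Ddx4 window alone, from position 64, and in 3.38% of all windows. The number of CG dinucleotides set the windows apart as well, with 30 in Ddx4, 23 in Dazl, 21 in Stk31, 20 in Kit, 13 in Dnd1, 10 in Sycp3 and 8 in Dnmt3l, but 1 in Nanos2 and 0 in Nanos3. The median over all windows was 5, and 15 marked the start of the upper quartile. A match describes the letters of a window and is not a binding site, and methylation was not measured in these samples.

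Counts assigned to genes ranged from 14282274 to 20323488 per library. The tissue label was checked against marker genes. Summed levels in the vehicle libraries, in CPM (counts scaled to 1 shared library size, with TMM factors), were 5790 to 7210 for 9 Leydig cell genes and 3130 to 4000 for 11 Sertoli cell genes. The 10 gonocyte genes summed to 421 to 501 CPM, and no listed marker was at 0 in all libraries. At 100 mg/kg/d, replicates 05 and 18 stood apart from the other 15 libraries: 7.76 to 9.05% of their counts came from mitochondrial genes and 6.21 to 6.89% from ribosomal protein genes, against 4.35 to 6.16% and 3.81 to 4.90% elsewhere. Their 12 endothelial genes summed to 343 and 437 CPM, against 602 in replicate 19, 650 to 693 in vehicle and 543 to 622 at 300 mg/kg/d. Calls of gonocyte genes at 100 mg/kg/d and over the dose series are therefore given with and without these 2 libraries. So are the estimates of Ddx4, Stk31 and Kit at 100 mg/kg/d, while other uncalled estimates there are given with them only. The part these measures had in the results was not tested.

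Per length, the 10 genes spanned a wide range in the vehicle testes. The highest levels per kilobase of exon were those of Dnd1, at 51.4 CPM per kb, and Stk31, at 49.3 CPM per kb, whose libraries overlapped. Ddx4, Sycp3, Dnmt3l and Kit followed at 19.1, 17.3, 16.1 and 14.9 CPM per kb, neighbours whose libraries overlapped. Dazl stood at 7.75 and Pou5f1 at 5.60 CPM per kb. Nanos3 and Nanos2 were the lowest of the 10, at 0.886 and 0.722 CPM per kb, and overlapped each other. The raw counts behind these last 2 genes were 6 to 31 for Nanos3 and 11 to 90 for Nanos2 per library. Counting error adds to their spread, by a share that was not estimated. Without a strand-marking kit, reads of overlapping genes on opposite strands cannot be told apart, and the counts of Sycp3 (overlapped by Chpt1), Dnd1 (by an unnamed gene) and Pou5f1 (by Tcf19) are uncertain to that extent.

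**Figure D1:**
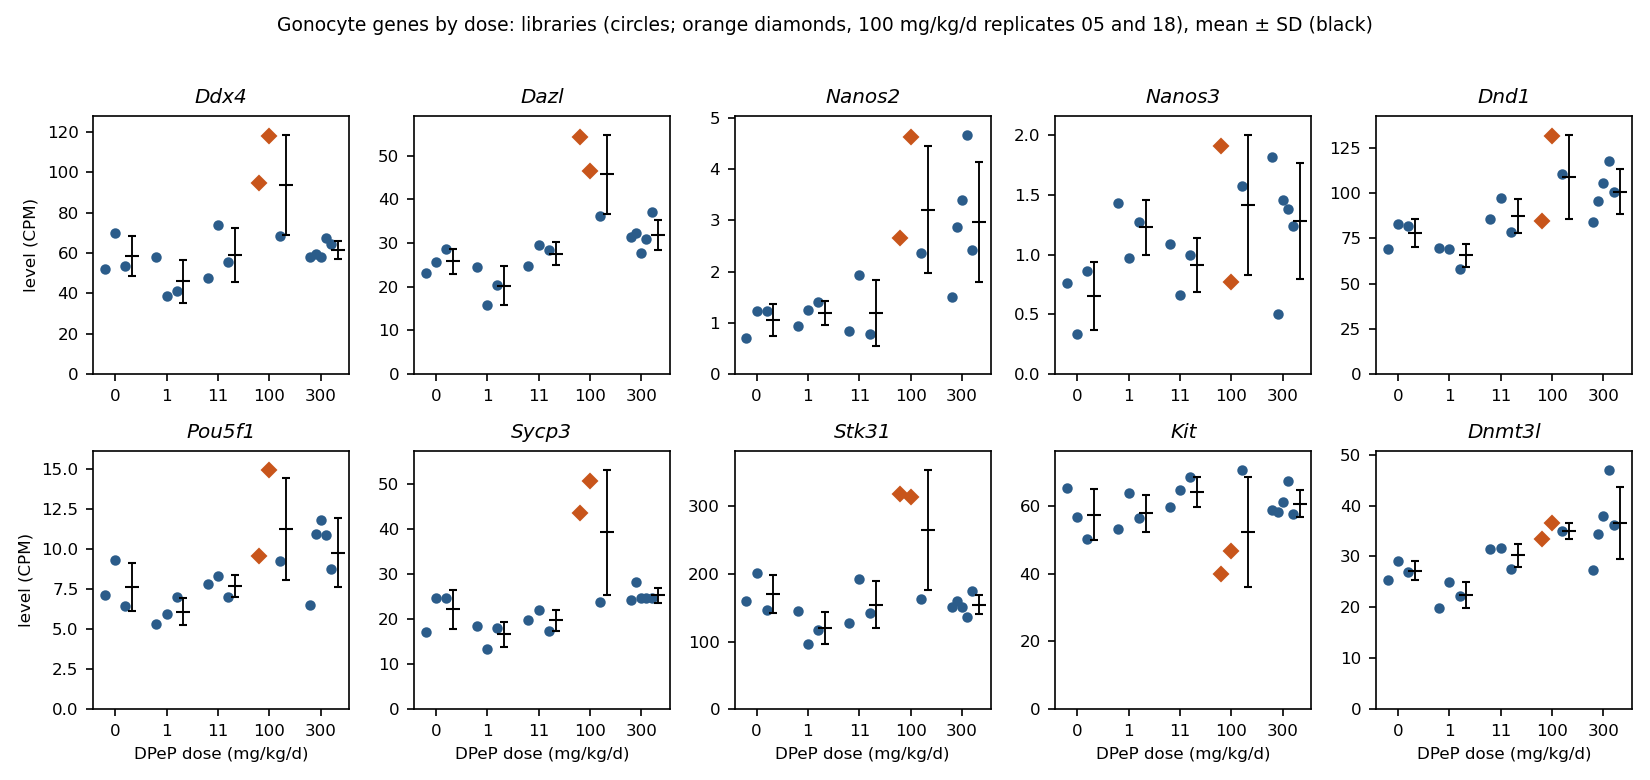
Level of each of the 10 genes in CPM (y axis, from 0) by DPeP dose in mg/kg/d (x axis), with 1 point per library, orange diamonds for 100 mg/kg/d replicates 05 and 18, and the mean ± SD in black. Ddx4, Stk31 and Sycp3 are high in those 2 libraries and near vehicle at 300 mg/kg/d, whereas every 300 mg/kg/d library lies above every vehicle library for Nanos2 (1.51 to 4.67 against 0.697 to 1.24 CPM).

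Nanos2, a male germ cell RNA-binding protein that represses meiosis, rose at 300 mg/kg/d, the only 1 of the 10 genes called there. It lies on chr1:78635668-78637128 (mRatBN7.2, plus strand, ENSRNOG00000038088). Its level was 0.697, 1.23 and 1.24 CPM in vehicle replicates 01, 08 and 15. The level at 300 mg/kg/d was 1.51, 2.87, 3.39, 4.67 and 2.42 CPM in replicates 06, 07, 13, 14 and 20. Each of these 5 libraries was above every vehicle library. The means were 1.05 ± 0.310 CPM in vehicle (SD, n = 3) and 2.97 ± 1.17 CPM at 300 mg/kg/d (SD, n = 5). It rose 2.80-fold, or 1.48 on the log2 scale (SE 0.388, edgeR quasi-likelihood test, adjusted p = 0.0465).

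Nanos2 at 100 mg/kg/d stood at 2.65, 4.63 and 2.36 CPM in replicates 05, 18 and 19. All 3 were above every vehicle library, replicate 19 included, but the log2 fold change of 1.61 (SE 0.418) had an adjusted p of 0.0595 in edgeR. At 1 mg/kg/d the levels were 0.935, 1.26 and 1.40 CPM, and at 11 mg/kg/d they were 0.848, 1.93 and 0.785 CPM. Both low-dose groups overlapped the vehicle libraries. The slope over all 17 libraries on log2(dose + 1), with the dose in mg/kg/d, was 0.205 log2 units per unit (SE 0.0393, edgeR adjusted p = 0.00270).

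The Nanos2 slope was called in all 23 alternatives run, with adjusted p up to 0.0102, and without replicates 05 and 18 it was 0.187 (adjusted p = 0.00200). The call at 300 mg/kg/d was less stable: 11 of 24 alternatives kept it, with adjusted p from 0.00729 to 0.196 and log2 fold changes from 1.25 to 1.65. It was lost without any 1 vehicle replicate (adjusted p = 0.196, 0.106 and 0.132 without replicates 01, 08 and 15) and without 300 mg/kg/d replicates 07, 13, 14 or 20 (0.0768, 0.0894, 0.125 and 0.0677). It was also lost with the sample code of the titles (S446, S447 or S448) as a term (adjusted p = 0.0917), and with limma voom (0.0576). Leaving out some libraries outside the comparison lost the edgeR call too. These were 1 mg/kg/d replicates 02, 09 and 10 (adjusted p = 0.0549, 0.0564 and 0.0561) and 11 mg/kg/d replicate 03 (0.0529). Within code S447 the log2 difference between 300 mg/kg/d and vehicle was 1.26 (2 libraries against 1), and within code S448 it was 1.73 (3 against 1). Code S446 held 1 vehicle and 1 low-dose library and gives no such value. What the codes stand for is not explained in the labels.

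Dnd1, the RNA-binding partner of NANOS2 that germ cells need to survive, had an upward slope on dose that was smaller than that of Nanos2. It lies on chr18:28378692-28381316 (mRatBN7.2, minus strand). Vehicle replicates 01, 08 and 15 held 69.0, 83.0 and 82.0 CPM. The 1 mg/kg/d libraries held 69.7, 69.1 and 58.1 CPM and the 11 mg/kg/d libraries 85.9, 97.3 and 78.8 CPM. The levels at 100 mg/kg/d were 84.8, 131 and 111 CPM in replicates 05, 18 and 19, and at 300 mg/kg/d they were 84.0, 95.8, 106, 118 and 101 CPM. The mean was lowest at 1 mg/kg/d (65.6 CPM, against 78.0 CPM in vehicle) and highest at 100 mg/kg/d (109 CPM). Every library at 100 and at 300 mg/kg/d was above every vehicle library, though the lowest of each group exceeded the highest vehicle library by little. The pairwise log2 fold changes were 0.48 (SE 0.146, edgeR adjusted p = 0.0966) and 0.37 (SE 0.132, adjusted p = 0.180). The slope was 0.0674 (SE 0.0151, edgeR adjusted p = 0.00864) and stayed called in 22 of 23 alternatives, being lost with the sample code as a term (adjusted p = 0.0577). Without 100 mg/kg/d replicates 05 and 18 the slope was 0.0623.

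Nanos3, which protects migrating primordial germ cells from death, gave no call. Its level ranged from 0.335 to 0.867 CPM in vehicle, 0.976 to 1.43 at 1 mg/kg/d, 0.663 to 1.09 at 11 mg/kg/d, 0.772 to 1.91 at 100 mg/kg/d and 0.507 to 1.82 at 300 mg/kg/d. The 3 libraries at 1 mg/kg/d were above every vehicle library, while the groups at 11, 100 and 300 mg/kg/d overlapped vehicle. At 1 mg/kg/d Stk31 and Dnmt3l had all 3 libraries below every vehicle library. The share of all genes without overlap at that dose was not counted, so whether these genes stand out from the rest is not known. The log2 fold change at 300 mg/kg/d was 0.97 (SE 0.426, edgeR adjusted p = 0.314), with a 2 SE interval from 0.12 to 1.82, and the slope was 0.0771 (SE 0.0422, adjusted p = 0.337).

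Dnmt3l, the cofactor of the DNA methyltransferases of gonocytes, had an upward slope over the dose series. It lies on chr20:10614934-10629516 (mRatBN7.2, minus strand). It stood at 25.4, 29.2 and 27.0 CPM in vehicle, 19.9, 24.9 and 22.3 CPM at 1 mg/kg/d and 31.4, 31.6 and 27.5 CPM at 11 mg/kg/d. The 100 mg/kg/d libraries lay close together at 33.4, 36.5 and 35.0 CPM, and the 300 mg/kg/d libraries held 27.4, 34.4, 37.9, 47.0 and 36.1 CPM. The mean was lower at 1 mg/kg/d than in vehicle, at 22.4 against 27.2 CPM. All 3 libraries at 100 mg/kg/d and 4 of 5 at 300 mg/kg/d were above every vehicle library, replicate 06 being the exception. The slope was 0.0703 (SE 0.0144, edgeR adjusted p = 0.00469) and was called in 23 of 23 alternatives. Without 100 mg/kg/d replicates 05 and 18 the slope was 0.0686. The pairwise log2 fold changes were 0.36 (SE 0.147, adjusted p = 0.191) at 100 and 0.43 (SE 0.133, adjusted p = 0.105) at 300 mg/kg/d, the latter called without replicate 06 (0.52, adjusted p = 0.0257).

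Pou5f1, the OCT4 pluripotency factor that gonocytes switch off as they mature, was low in all groups. It ranged from 6.44 to 9.33 CPM in vehicle, 5.30 to 7.00 at 1 mg/kg/d, 6.96 to 8.28 at 11 mg/kg/d, 9.25 to 14.9 at 100 mg/kg/d and 6.48 to 11.8 at 300 mg/kg/d. The groups at 100 and 300 mg/kg/d overlapped the vehicle libraries. The log2 fold changes were 0.56 (SE 0.225, edgeR adjusted p = 0.186) and 0.35 (SE 0.204, adjusted p = 0.501), and the slope of 0.0748 (SE 0.0223) had an adjusted p of 0.0508, with 6 of 23 alternatives calling it.

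**Figure D2:**
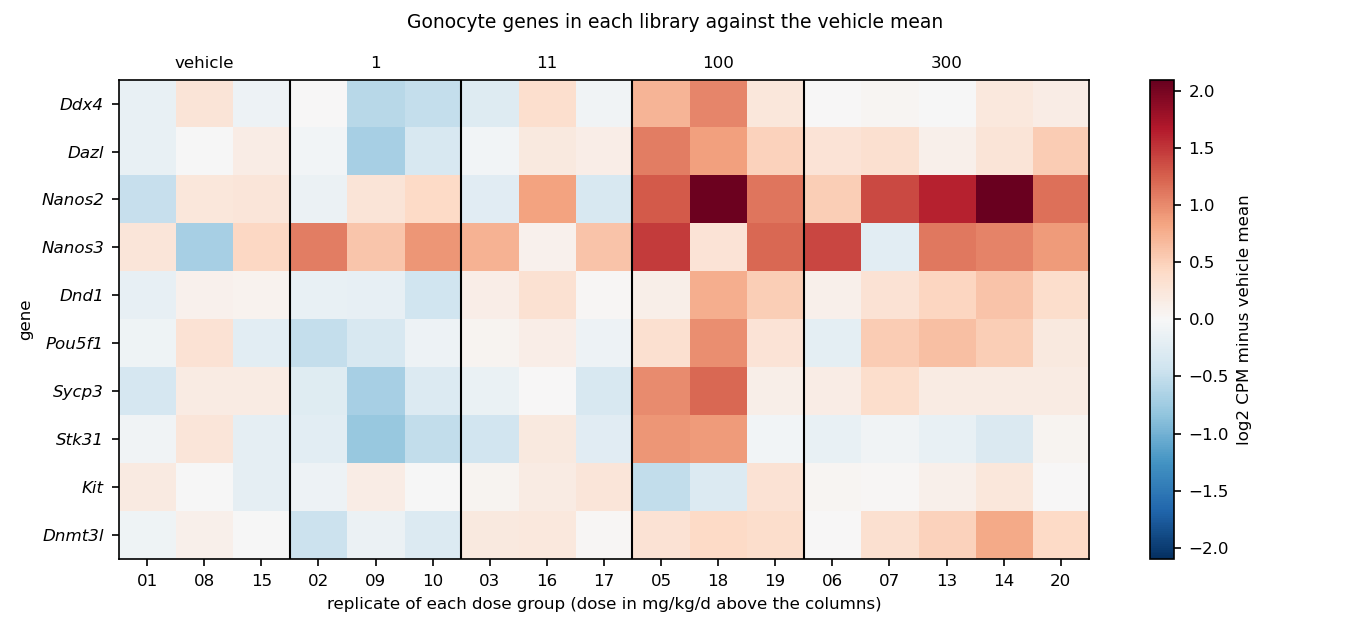
The log2 CPM of each gene (rows) in each library (columns, by replicate, dose in mg/kg/d above) minus the vehicle mean, with red above and blue below vehicle. The columns of 100 mg/kg/d replicates 05 and 18 are red for all genes except Kit, with medians over the 10 genes of 0.82 and 0.88 against 0.34 in replicate 19, and Nanos2 is the reddest row in 4 of the 5 columns at 300 mg/kg/d, Nanos3 being higher in replicate 06.

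Dazl, Ddx4, Stk31 and Sycp3 were higher in 100 mg/kg/d replicates 05 and 18 than in replicate 19. Among them, replicate 19 lay above every vehicle library for Dazl alone. Dazl, an RNA-binding protein that licenses germ cells for their sex-specific fate (chr9:10695592-10712323, mRatBN7.2, plus strand), held 54.3, 46.6 and 36.2 CPM in 100 mg/kg/d replicates 05, 18 and 19. Vehicle replicates 01, 08 and 15 held 23.1, 25.7 and 28.7 CPM. No library overlapped between these groups. Dazl rose 1.77-fold, by 0.82 on the log2 scale (SE 0.161, edgeR adjusted p = 0.0109). Without replicates 05 and 18 the difference was 0.47 (adjusted p = 0.280), a fit in which replicate 19 alone stands for its dose and takes its spread from the remaining groups. That call was lost without vehicle replicate 01 (adjusted p = 0.0766), replicate 05 (0.0668) or replicate 18 (0.0694). Within code S447 the log2 difference was 0.63 (2 libraries against 1) and within code S448 it was 1.01 (1 against 1).

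Dazl at 300 mg/kg/d stood at 31.5, 32.3, 27.6, 30.9 and 37.2 CPM. All but replicate 13 were above every vehicle library, and the log2 fold change was 0.31 (SE 0.146, edgeR adjusted p = 0.372). The 1 mg/kg/d libraries held 24.6, 15.9 and 20.3 CPM and the 11 mg/kg/d libraries 24.7, 29.7 and 28.4 CPM. The slope was 0.0823 (SE 0.0223, edgeR adjusted p = 0.0307), and 0.0596 (adjusted p = 0.0178) without replicates 05 and 18. It was called in 17 of 23 alternatives, with adjusted p up to 0.124.

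Ddx4, the RNA helicase of the germ granules (chr2:44227946-44282723, mRatBN7.2, minus strand), reached 94.8 and 118 CPM in replicates 05 and 18 but 68.2 CPM in replicate 19. The vehicle libraries held 52.0, 69.9 and 53.5 CPM, so replicate 19 lay within their range. Its log2 fold change at 100 mg/kg/d was 0.68 (SE 0.189, edgeR adjusted p = 0.0733). The estimate was 0.21 without replicates 05 and 18. Ddx4 at 300 mg/kg/d stood at 58.3, 59.7, 57.8, 67.5 and 64.4 CPM, all within the vehicle range, with an estimate of 0.07 (SE 0.169, adjusted p = 0.908) and a 2 SE interval from -0.27 to 0.41. The 1 mg/kg/d libraries held 58.0, 38.8 and 41.1 CPM and the 11 mg/kg/d libraries 47.8, 74.2 and 55.3 CPM.

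Stk31, a germ cell protein with a Tudor and a kinase-like domain (chr4:78370649-78466240, mRatBN7.2, plus strand), had the same division at 100 mg/kg/d, at 318, 314 and 162 CPM in replicates 05, 18 and 19. The vehicle libraries held 161, 201 and 147 CPM and the 300 mg/kg/d libraries 151, 160, 151, 137 and 174 CPM. Replicate 19 was thus within the range of vehicle. The log2 fold change at 100 mg/kg/d was 0.64 (SE 0.208, edgeR adjusted p = 0.114), and -0.08 without replicates 05 and 18. At 300 mg/kg/d it was -0.14 (SE 0.185, adjusted p = 0.832).

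Sycp3 encodes a protein of the synaptonemal complex, the scaffold between paired meiotic chromosomes, and lies on chr7:22874055-22888511 (mRatBN7.2, plus strand). At 100 mg/kg/d it stood at 43.6, 50.7 and 23.9 CPM in replicates 05, 18 and 19, against 17.2, 24.7 and 24.8 CPM in vehicle. Replicate 19 was below 2 of the 3 vehicle libraries. Sycp3 was called higher, by 0.82 on the log2 scale (SE 0.205, edgeR adjusted p = 0.0472), but without replicates 05 and 18 the difference was 0.08 (adjusted p = 0.90). Over all alternatives 5 of 24 kept the call, and within codes S447 and S448 the log2 differences were 0.38 and 1.55. The estimate was 0.74 (adjusted p = 0.143) without replicate 05 and 0.59 (0.283) without replicate 18, and 0.67, 0.91 and 0.91 (adjusted p = 0.20, 0.0742 and 0.101) without vehicle replicates 01, 08 and 15. The 300 mg/kg/d libraries held 24.3, 28.2, 24.6, 24.7 and 24.7 CPM, an estimate of 0.19 (SE 0.185, adjusted p = 0.743).

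Kit, the receptor of stem cell factor on migrating germ cells and later on differentiating spermatogonia, moved apart from the others. It lies on chr14:32548877-32624652 (mRatBN7.2, minus strand). It was 39.8 and 46.9 CPM in 100 mg/kg/d replicates 05 and 18, below every vehicle library (65.4, 56.7 and 50.4 CPM), but 70.8 CPM in replicate 19, above all 3. The log2 fold change at 100 mg/kg/d was -0.13 (SE 0.156, edgeR adjusted p = 0.655), and -0.41 (adjusted p = 0.0193) when replicate 19 was left out. With replicates 05 and 18 left out the estimate turned positive, at 0.28 (adjusted p = 0.353). Kit at 300 mg/kg/d held 59.0, 58.3, 61.3, 67.6 and 57.7 CPM, an estimate of 0.08 (SE 0.139, adjusted p = 0.875) with a 2 SE interval from -0.20 to 0.36. Kit is also made by Leydig cells and mast cells. The 8 mast cell genes summed to 5.03 to 9.74 CPM over all 17 libraries. The 9 Leydig cell genes summed to 2800 to 3930 CPM at 100 mg/kg/d and 1610 to 2450 CPM at 300 mg/kg/d, against 5790 to 7210 CPM in vehicle, and their part in the Kit level was not tested.

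**Figure D3:**
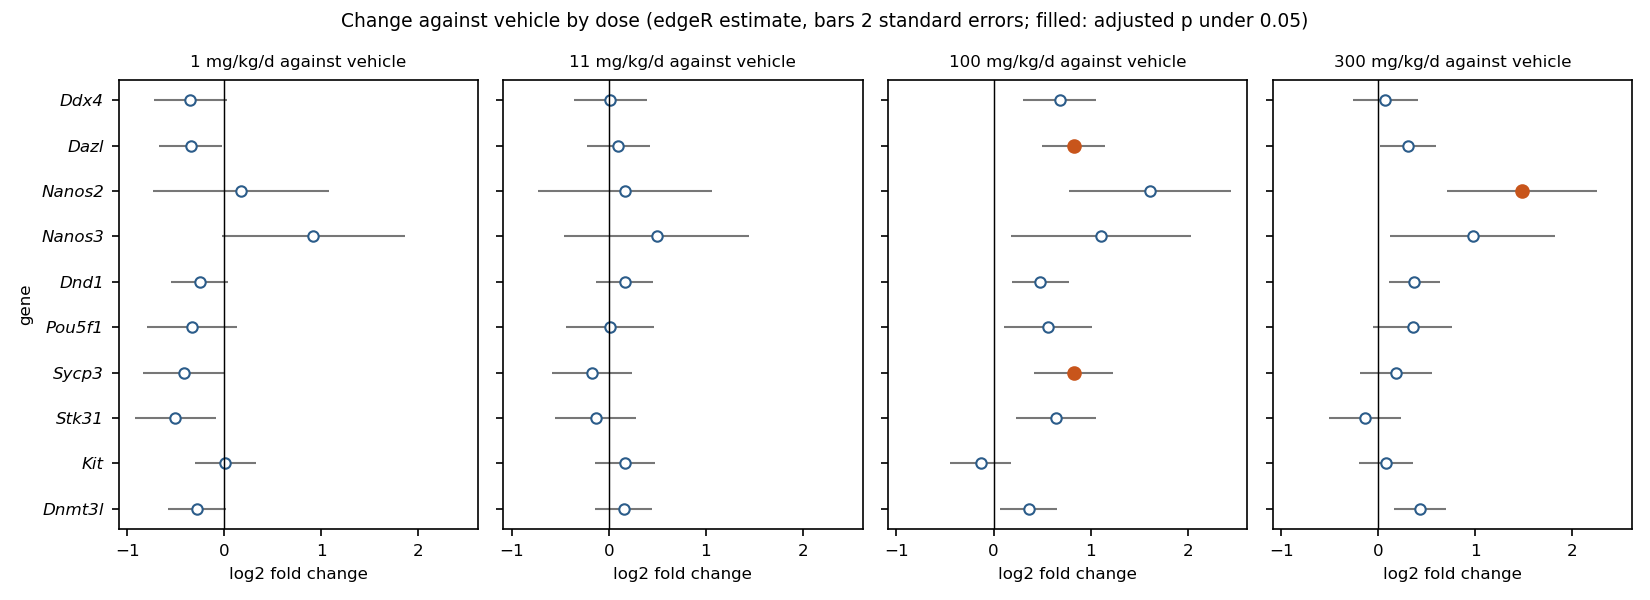
Change of each gene against vehicle at 1, 11, 100 and 300 mg/kg/d (panels), as the edgeR log2 fold change (x axis) with bars of 2 standard errors, and filled points where the adjusted p was under 0.05. Dazl and Sycp3 are filled at 100 mg/kg/d and Nanos2 at 300 mg/kg/d, and no gene is filled at 1 or 11 mg/kg/d.

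Counted over the 10 genes, 2 rose and 0 fell at 100 mg/kg/d, where 1.52% of all 18005 genes tested were called, and 1 rose and 0 fell at 300 mg/kg/d, where 2.40% were called. The slope was called upward for 4 (Nanos2, Dnmt3l, Dnd1 and Dazl) and downward for 0, beside 5.72% of all genes. The median log2 fold change of the 10 genes was 0.66 at 100 mg/kg/d and 0.33 at 300 mg/kg/d, and that of all genes was 0.05 and 0.01. These comparisons share the vehicle libraries and are not independent of each other. Every library at 300 mg/kg/d was above every vehicle library for 2 of the 10 genes, Nanos2 and Dnd1, and for 5.82% of all genes. The same held at 100 mg/kg/d for 4, Dazl, Nanos2, Dnd1 and Dnmt3l, and for 7.14% of all genes.

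At the 2 low doses none of the 10 genes was called. The edgeR test called 0.0% of all genes at 1 mg/kg/d and 0.0% at 11 mg/kg/d, with 891 and 633 genes at an unadjusted p under 0.05. Of the 10 genes, 2 at 1 mg/kg/d and 0 at 11 mg/kg/d had an unadjusted p under 0.05, and DESeq2 and limma voom called none of them either. At 1 mg/kg/d 7 of 10 estimates were negative, with a median log2 fold change of -0.31 against 0.01 over all genes. The most negative was that of Stk31, at -0.50 (SE 0.208, edgeR adjusted p = 0.864), with libraries at 145, 97.0 and 117 CPM against 147 to 201 CPM in vehicle. At 11 mg/kg/d 8 of 10 estimates were positive, with a median of 0.12.

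Set against 100 mg/kg/d, 8 of the 10 genes had a negative log2 fold change at 300 mg/kg/d. The estimates were -0.78 for Stk31 (SE 0.182, edgeR adjusted p = 0.0837), -0.64 for Sycp3 (SE 0.179, adjusted p = 0.0899), -0.61 for Ddx4 (SE 0.165, adjusted p = 0.0899) and -0.52 for Dazl (SE 0.141, adjusted p = 0.0899). None was called by edgeR, which called 0.00555% of all genes, 1 in number, with 4362 at an unadjusted p under 0.05 and 4 of the 10 genes among these. DESeq2 called those 4 genes, and limma voom with library weights called 7. Ddx4 was the gene whose 300 mg/kg/d libraries were all below the 100 mg/kg/d libraries, which held for 2.60% of all genes. Nanos2 (-0.12, SE 0.339, adjusted p = 0.849) and Dnmt3l (0.07, SE 0.131, adjusted p = 0.784) had estimates near 0, with 2 SE intervals from -0.80 to 0.56 and from -0.20 to 0.33.

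In bulk tissue, more germ cells in a sample and more RNA of a gene per germ cell cannot be told apart. As a description, the fate genes were therefore also set against the mean log2 CPM of Ddx4, Dazl and Stk31 in the same library, 3 genes expressed across germ cells, with the vehicle mean at 0. On this log2 ratio Nanos2 was 0.47, 1.29, 1.64, 2.01 and 0.91 in the 300 mg/kg/d libraries, a mean of 1.26 ± 0.603 (SD, n = 5), and each was above the highest vehicle library. The ratio at 100 mg/kg/d was 0.38, 1.13 and 0.89 in replicates 05, 18 and 19. At 1 mg/kg/d, where Ddx4, Dazl and Stk31 had negative estimates, it was -0.02, 0.95 and 0.86 in replicates 02, 09 and 10. Replicates 09 and 10 were thus above 300 mg/kg/d replicate 06, as was 11 mg/kg/d replicate 16, at 0.59. Dnd1 had a ratio of 0.28 ± 0.210 and Dnmt3l of 0.32 ± 0.296 (SD, n = 5) at 300 mg/kg/d. For both genes these libraries overlapped the vehicle libraries, and 1 mg/kg/d replicate 09 stood at 0.52 and 0.57. A high ratio was not particular to Nanos2 or to the top dose. Nanos3 stood at 1.27 ± 0.101 at 1 mg/kg/d (SD, n = 3), from 1.18 to 1.38, against -0.867 to 0.478 in vehicle. At 300 mg/kg/d Nanos3 had 0.755 ± 0.657 and Pou5f1 0.25 ± 0.381 (SD, n = 5), and both overlapped vehicle.

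Replicates 05 and 18 differed from replicate 19 in these ratios. Kit stood at -1.42 and -1.21 in replicates 05 and 18 and at 0.08 in replicate 19. Dnmt3l stood at -0.60 and -0.50 against 0.14, and Dnd1 at -0.78 and -0.17 against 0.28. Sycp3 went the other way, at 0.08 and 0.28 against -0.10. The higher Ddx4, Dazl and Stk31 of those 2 libraries was not matched by an equal change of Kit and Dnmt3l. Those 3 genes form the divisor, whose mean log2 CPM was 6.88 and 6.91 there against 6.21 in replicate 19. Any gene that rose less than the divisor has a lower ratio there by construction. In CPM, Dnmt3l was 33.4 and 36.5 in replicates 05 and 18 and 35.0 in replicate 19. The cause was not tested, and Kit is also made by Leydig cells and mast cells.

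**Figure D4:**
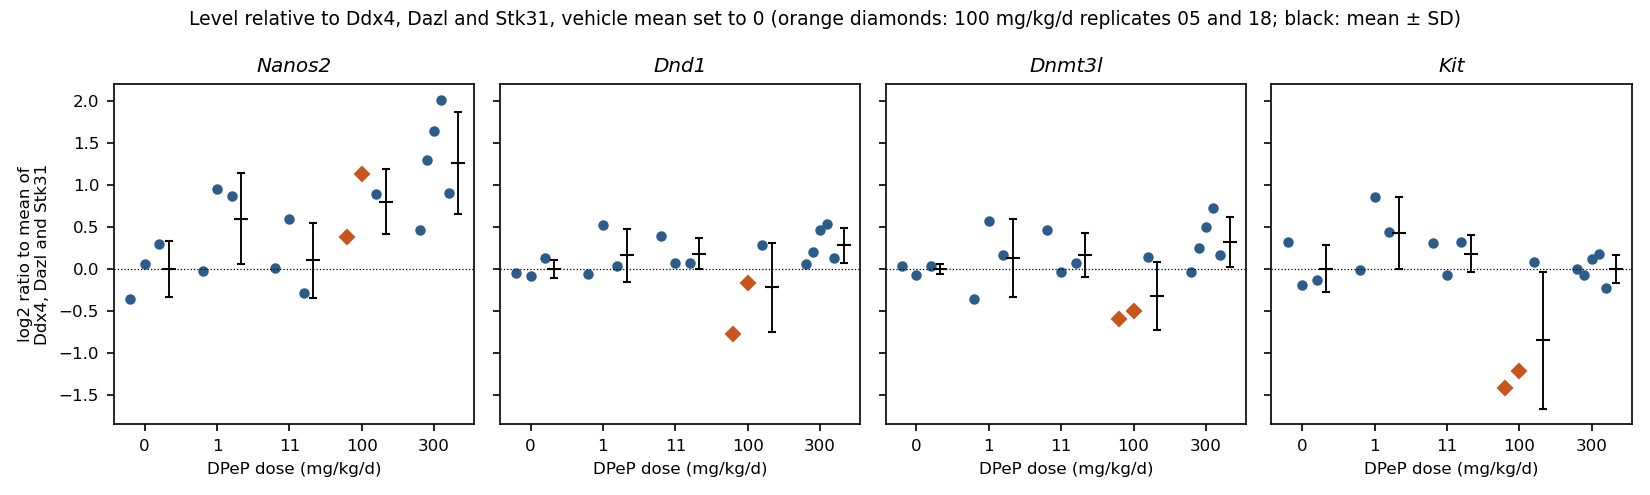
The log2 ratio of Nanos2, Dnd1, Dnmt3l and Kit to the mean of Ddx4, Dazl and Stk31 in each library (y axis, vehicle mean at 0) by DPeP dose in mg/kg/d (x axis), with orange diamonds for 100 mg/kg/d replicates 05 and 18 and the mean ± SD in black. Nanos2 lies above 0 in all 300 mg/kg/d libraries (0.47 to 2.01), and Kit lies at -1.42 and -1.21 in the orange libraries.

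Upstream signals of male germ cell fate, including ligands, receptors and an enzyme, were examined as a list of 19 genes, 18 of them tested. Which cells of the testis made each RNA was not measured. At 300 mg/kg/d 2 rose and 1 fell, where 2.40% of all genes were called. Fgf9, a growth factor of Sertoli cells that promotes male germ cell fate, rose from 4.82 ± 0.381 CPM in vehicle (SD, n = 3) to 9.44 ± 1.80 CPM (SD, n = 5), a log2 difference of 0.97 (SE 0.199, edgeR adjusted p = 0.00924). Cyp26b1, the enzyme that degrades retinoic acid, the inducer of meiosis, rose from 132 ± 29.6 to 209 ± 37.1 CPM, by 0.66 (SE 0.156, adjusted p = 0.0247). Lefty2, an inhibitor and target of Nodal signalling, fell from 4.63 ± 0.413 to 0.559 ± 0.204 CPM, by 3.04 on the log2 scale (SE 0.333, edgeR adjusted p = 1.11e-05). Each call held in most alternatives, in 22, 20 and 24 of 24 alternatives for Fgf9, Cyp26b1 and Lefty2.

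Lefty2 also fell at 100 mg/kg/d, to 0.912 ± 0.454 CPM, by 2.31 on the log2 scale (SE 0.372, edgeR adjusted p = 0.00247), and by 3.55 without replicates 05 and 18 (adjusted p = 0.0142). At 11 mg/kg/d it stood at 1.41 ± 0.545 CPM and at 1 mg/kg/d at 4.17 ± 1.38 CPM (SD, n = 3 each). The difference at 11 mg/kg/d, -1.70 (SE 0.353), was not called by edgeR (adjusted p = 0.136), and was called by DESeq2 and by limma voom. Kitlg, the ligand of KIT, stood at 56.4 CPM in vehicle and 68.1 CPM at 300 mg/kg/d and was not called (adjusted p = 0.454). Of 11 Sertoli cell markers, Fgf9 included, 5 rose and 1 fell at 300 mg/kg/d, beside the 2.40% of all genes. Their summed level was 3640 to 6110 CPM there, against 3130 to 4000 CPM in vehicle, and its part in the Fgf9 and Nanos2 levels was not tested. In edgeR no gene of these signals, nor of the other lists below, was called at 1 or 11 mg/kg/d.

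Among other germ cell identity genes, 34 of 35 had a row, and 35 rows were tested because Dppa5 names several. At 100 mg/kg/d 3 rose and 0 fell, with a median log2 fold change of 0.36, where 1.52% of all genes were called. Dppa4, a chromatin protein of pluripotent and germ cells, rose from 115 ± 9.79 to 184 ± 46.9 CPM (SD, n = 3 each; 0.68, edgeR adjusted p = 0.0180). Tex14, a protein of the bridges between germ cells, rose from 38.7 ± 5.61 to 59.2 ± 2.17 CPM (0.61, adjusted p = 0.0277), and Tfap2c, a transcription factor of primordial germ cells, from 1.11 ± 0.178 to 2.43 ± 0.382 CPM (1.12, adjusted p = 0.0379). Without replicates 05 and 18 none of the 35 was called, and the estimates were 0.16 for Dppa4, 0.53 for Tex14 and 1.33 for Tfap2c, with adjusted p of 0.605, 0.209 and 0.125.

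Of the 35, 1 rose at 300 mg/kg/d (2.40% of all genes called), Tfap2c, to 2.24 ± 0.369 CPM (1.01, edgeR adjusted p = 0.0295), a call kept in 15 of 24 alternatives. The median of the list was 0.19. The slope was called upward for 9 and downward for 0, where 5.72% of all genes were called. The 4 with the smallest adjusted p were Fkbp6, Tfap2c, Piwil4 and Mov10l1, and Piwil4 and Mov10l1 act in the piRNA pathway that silences transposons in germ cells. The smallest adjusted p was that of Fkbp6, at 0.00803, with a slope of 0.0544, which was called in 23 of 23 alternatives. Without replicates 05 and 18 the number called was also 9, while that of all genes went from 1030 to 1711.

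Of 25 meiosis genes tested, 1 rose at 100 mg/kg/d and 1 at 300 mg/kg/d, and 0 fell in either, beside 1.52% and 2.40% of all genes. Syce1, a synaptonemal complex protein, rose from 15.1 ± 1.91 to 27.8 ± 10.4 CPM at 100 mg/kg/d (0.88, edgeR adjusted p = 0.0387), but the estimate was 0.06 without replicates 05 and 18 (adjusted p = 0.925). Stag3, a cohesin subunit of meiotic chromosomes, rose from 115 ± 17.3 to 161 ± 21.7 CPM at 300 mg/kg/d (0.49, adjusted p = 0.0438), a call kept in 11 of 24 alternatives. Its slope of 0.0586 (adjusted p = 0.00823) was called in 23 of 23. Stra8, the gene that retinoic acid induces at the entry into meiosis, was at 0.766 CPM in vehicle, 0.967 CPM at 100 and 0.959 CPM at 300 mg/kg/d and was not called.

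Of 11 genes for RNA decay partners of NANOS and DND1 proteins, 1 fell at 300 mg/kg/d, beside 2.40% of all genes. This was Nanos1, a family member, which went from 6.51 ± 1.14 to 3.76 ± 0.631 CPM (-0.79, edgeR adjusted p = 0.0333), opposite in sign to Nanos2. Cnot1, the scaffold of the deadenylase complex that NANOS2 binds, stood at 259 CPM in vehicle and had a log2 fold change of 0.11 at 300 mg/kg/d (adjusted p = 0.755). None of 8 DNA methylation genes was called by edgeR in any comparison against vehicle. Their counts at an unadjusted p under 0.05 were 0, 0, 2 and 0 at 1, 11, 100 and 300 mg/kg/d, DESeq2 called none, and limma voom called 2 lower at 100 mg/kg/d. The maintenance methyltransferase Dnmt1 stood at 229, 190 and 226 CPM in vehicle, 100 and 300 mg/kg/d, and the de novo methyltransferase Dnmt3a, a partner of DNMT3L, at 163, 182 and 196 CPM.

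To see which genes shared the 2 patterns, the centred log2 CPM of 14475 genes over the 17 libraries was compared with that of Ddx4 and of Nanos2 by the root mean square difference. The 5 nearest to Ddx4 were Mael (0.12), AABR07039206.1 (0.12), Gtsf1 (0.13), Nlrp4 (0.13) and Ddx43 (0.13), where the pattern of Ddx4 itself has a root mean square of 0.38. Mael, for example, stood at 146 ± 11.2 CPM in vehicle, 218 ± 60.2 CPM at 100 mg/kg/d (SD, n = 3 each) and 146 ± 14.1 CPM at 300 mg/kg/d (SD, n = 5). The 5 nearest to Nanos2 were Rassf10 (0.39), AABR07058464.1 (0.41), Fgf9 (0.42), Col9a2 (0.42) and Tnnt2 (0.44), where Nanos2 itself has 0.79. These are less close, and the libraries share their depth and their tissue make-up. Rassf10 stood at 2.27 ± 0.477 CPM in vehicle and 5.04 ± 0.877 CPM at 300 mg/kg/d.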

How the data were processed

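RNA was measured in 17 fetal testis libraries. The submitters' processing notes name Trimmomatic 0.36, STAR 2.5.2b, featureCounts of Subread 1.5.2 and the build mRatBN7.2. The counting's strand setting is not stated. The deposited count files hold raw counts per gene. Deposited tables of TPM and log2 values were not used here. The 92 ERCC spike-in rows were dropped. No library pair agreed within sampling noise.

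The 10 genes, the lists and the alternatives were chosen with earlier results of these data known, so no list is independent support. Named genes are the 10, up to 4 called members of a list in a comparison or its 2 highest where none was called, and the 5 genes nearest in pattern to Nanos2 and to Ddx4 among those with a mean of at least 1 CPM. Kitlg, Stra8 and Cnot1 fall outside this rule and were added for their roles, after their values were seen.

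The test was edgeR 4.0.16's quasi-likelihood F test (R 4.3.3) on the counts, with TMM, filterByExpr by group and 1 fit of all 17 libraries. Calls have a Benjamini-Hochberg adjusted p under 0.05 over 18005 genes. The log2 CPM used a prior count of 2. Standard errors divide the size of a log2 fold change by the root of its F value, and intervals span 2 of them on each side. Alternatives were DESeq2 1.42.0, its size factors in edgeR, voom of limma 3.58.1 with sample quality weights, no filter, the compared groups alone, the sample code as a term, and fits without 1 library or without 100 mg/kg/d replicates 05 and 18. Promoter letters come from RefSeq windows of GRCr8.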

Additional observations from a re-analysis of the deposited data

Results flagged for a closer look

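Sycp3 in 300 mg/kg/d replicate 07 stood apart from the rest of its group, at 28.2 CPM against 24.3 to 24.7 CPM in the other 4 libraries. Its gap to the nearest library was 0.893 of the range of the group. The 10 gonocyte genes were checked in this group of 5, and chance flags about 1 in 20 such groups.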

How the results depend on the processing

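The counts of called genes depended strongly on the fit. No paired analysis was possible by replicate number because the groups share none. The sample codes of the titles, which groups do share, were used as a term instead. The slope has no fit of the compared groups alone. The direction of a gene is compared only where it was called, and no called value changed sign.

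At 1 mg/kg/d 0 genes were called, 1 without the filter, 3 in the compared groups alone and 0 to 1 with 1 library left out. At 11 mg/kg/d 0 became 26 with DESeq2, 17 with voom, 19 without the filter, 10 in the groups alone, 1 with the sample code, 19 without 100 mg/kg/d replicates 05 and 18, and 0 to 19 with 1 library left out. The gonocyte genes stayed at 0 at both doses, 0 to 0 with 1 library left out.

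At 100 mg/kg/d the 274 genes became 904 with DESeq2, 4457 with voom, 45 in the groups alone, 73 without replicates 05 and 18, and 93 (without replicate 18) to 4250 (without replicate 19) with 1 library left out. The 2 gonocyte genes became 1 with DESeq2 size factors, 5 with DESeq2, 8 with voom, 4 without the filter, 0 in the groups alone, 0 without replicates 05 and 18, and 0 to 8 with 1 library left out. The voom weights were 0.353, 3.35 and 0.203 for replicates 05, 18 and 19.

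At 300 mg/kg/d the 432 genes became 746 with DESeq2, 868 with voom, 835 in the groups alone, 270 with the sample code, 869 without replicates 05 and 18, and 212 to 755 with 1 library left out. The 1 gonocyte gene became 0 with voom, 0 with the sample code and 0 to 2 with 1 library left out.

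For 300 against 100 mg/kg/d the 1 gene became 1310 with DESeq2, 6571 with voom, 225 without the filter, 0 in the groups alone, 0 with the sample code, 0 without replicates 05 and 18, and 0 to 5872 with 1 library left out. The gonocyte genes went from 0 to 4, 7 and 2 with DESeq2, voom and no filter, and 0 to 5 with 1 library left out. For the slope the 1030 genes became 2035 with voom, 586 with the sample code, 1711 without replicates 05 and 18, and 746 to 1503 with 1 library left out. The 4 gonocyte genes became 2 with the sample code and 3 to 5 with 1 library left out.

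The causes were not tested. Counts of 6 to 31 reads for Nanos3 and 11 to 90 for Nanos2 limit those genes.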
